A study of Mus musculus with 6 samples.

Results

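The Pi16 and Clec3b fibroblasts of the mouse femoral fracture callus were examined at 14 days post-fracture. A cell barcode was taken as a member when it held at least 3000 unique molecular identifiers (UMIs, each counting 1 captured transcript molecule), at most 10% mitochondrial UMIs, at least 1 Pi16 UMI and at least 5 UMIs of Pi16, Clec3b, Tnxb and Dpt together. Barcodes with 3 or more Tnmd and Kera UMIs (tendon genes), 3 or more Ihh UMIs (a prehypertrophic chondrocyte gene), or more than 1 UMI of Ptprc (leukocytes) or Cdh5 (endothelium) were left out. These conditions kept 279 cells of 30589 barcodes that passed the UMI and mitochondrial limits, and of 46944 barcodes in all. Pi16, Clec3b, Tnxb and Dpt chose the cells, so their levels in them are a description and not a finding.

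The control group was 3 callus libraries with the label wt, from mice that the study's methods describe as Piezo1 f/f. The knockout group was 3 callus libraries labelled Col2CreERT; Piezo3-/-. The series' design text and the study give Piezo1 as the deleted gene, so the label was read as a slip for Piezo1. All mice were 12 weeks old with a femoral fracture, and according to the methods tamoxifen (75 mg/kg) was given daily for 5 days, starting on day 5. Col2a1 regulatory sequence drives the CreERT there, which is active in chondrocytes, so the fibroblasts described here were not the cells aimed at. The comparison asks whether they nevertheless differed between the groups. The study's text gives differing numbers of mice for this experiment, so whether each library held 1 mouse is not known, and the p-values measure the spread between these libraries.

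Fibroblasts of this kind line the outer coat of vessels, fascia and the outer layers of many organs. They are known for Pi16, a secreted protease inhibitor-like protein, for Clec3b, the plasminogen-binding protein tetranectin, and for Dpp4, Ly6a (Sca-1) and Cd34 on their surface. They are regarded as a reservoir from which more specialised fibroblasts arise, and they surround themselves with fibrillin microfibrils and loosely packed collagen. Tnxb and Dpt encode the matrix proteins tenascin-X and dermatopontin, which space and bundle collagen fibrils. In a healing bone such cells lie beside the periosteum, whose own progenitors give rise to callus cartilage and bone.

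The libraries held 57626530 to 103784364 UMIs each, and some of them stood apart. Knockout library 3 had 689.2 CPM (UMIs of a gene per 1000000 UMIs) of Xist, the RNA of the inactive X chromosome, in the fibroblasts and 0 of the Y-linked Ddx3y, Uty, Kdm5d and Eif2s3y. The other 5 libraries had 0 CPM of Xist and 65.72 to 128.7 CPM of Ddx3y. The study describes its mice as male. Control library 3 gave 15 fibroblasts with a median marker sum (UMIs of the 4 genes in a cell) of 8, while the medians of the other libraries were 16.0 to 58.0. The cells of replicate 1 were the deepest, with a median of 27816 UMIs in control library 1 and 37760 in knockout library 1 against 10312 to 13626 in the other 4. Any pair of libraries shared between 4 and 36 cell barcodes, at most 0.383% of the smaller library.

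Pi16 fibroblasts were found in all 6 libraries, at a share that varied more within the groups than between them. Control libraries 1, 2 and 3 gave 77, 31 and 15 cells, which were 3.596%, 0.4847% and 0.2193% of the filtered barcodes. Knockout libraries 1, 2 and 3 gave 38, 59 and 59 cells, or 2.317%, 0.7912% and 0.9648%. The replicate 1 libraries, whose cells were deepest, were highest in both groups, and the groups overlapped. With the rule applied to cells thinned to 3000 UMIs, the mean share was 0.6807% ± 0.8804 (SD, n = 3) in control libraries. In knockout libraries it was 0.6175% ± 0.1761 (SD, n = 3). Thinning takes marker UMIs from a cell while the required marker sum stays the same, so lower shares follow largely from the rule. The part of depth in the differences between libraries was not tested. The mean share was 1.433% ± 1.878 (SD, n = 3) in control and 1.358% ± 0.8354 (SD, n = 3) in knockout libraries, a difference of -0.0758 percentage points with p = 1.0 in a two-sided exact permutation test, whose smallest possible p here is 0.1. Within replicates 1, 2 and 3 the knockout library differed from the control library by -1.28, 0.307 and 0.746 percentage points.

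Among stromal cells, taken as the fibroblasts together with other cells that held a Pdgfra UMI (the PDGF receptor of connective tissue cells) and passed the same Ihh, Ptprc and Cdh5 limits (tendon-like cells included), the groups overlapped as well. The fibroblasts made up 9.233%, 4.178% and 0.7792% of the stromal cells in control libraries 1, 2 and 3 and 5.556%, 3.226% and 4.896% in the knockout libraries. The means were 4.73% ± 4.254 (SD, n = 3) and 4.559% ± 1.201 (SD, n = 3), with p = 1.0 in the exact permutation test. The controls spanned the whole range of the knockouts, and the sign of either difference rested on single libraries: without control library 1 the knockout libraries were higher by 1.01 points of filtered barcodes and by 2.08 points of stromal cells. Without knockout library 2 they were higher by 0.207 and 0.496 points, and without knockout library 3 by 0.121 points of filtered barcodes but lower by 0.339 points of stromal cells (a change of -0.339).

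**Figure D1:**
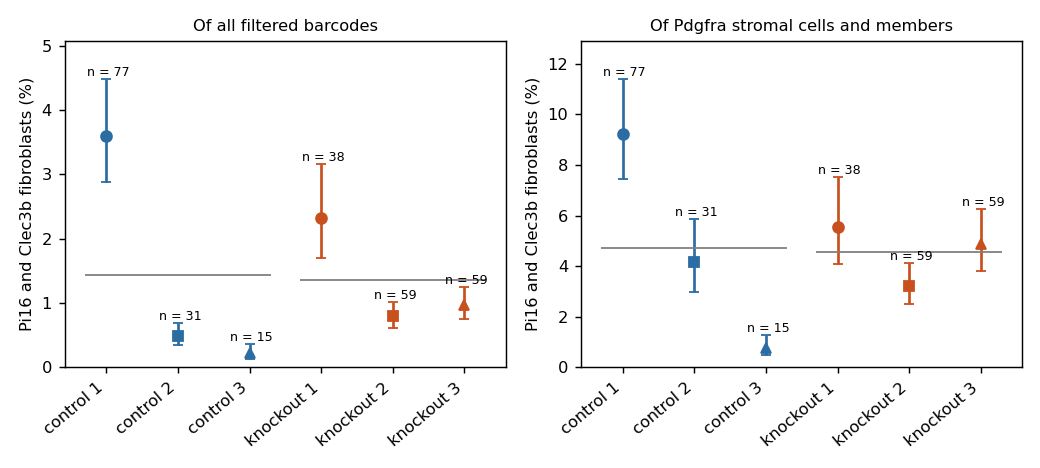
Share of Pi16 and Clec3b fibroblasts per library in percent (y axes), of all filtered barcodes (left) and of Pdgfra stromal cells including the fibroblasts (right); bars are 95% Wilson intervals, which cover counting error only, n is the number of fibroblasts, and grey lines are group means. Control 1 was highest at 3.596% and 9.233% and control 3 lowest at 0.2193% and 0.7792%, and the knockout libraries lay between them.

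Most members carried several of the genes that defined them. All 4 of Pi16, Clec3b, Tnxb and Dpt were detected in 160 of the 279 cells, 3 of them in 73, 2 in 43 and Pi16 alone in 3. A Ly6a UMI, which the rule did not ask for, was found in 273 cells, a Pdgfra UMI in 251, and an Aspn UMI (asporin, a proteoglycan of periosteal and tendon cells) in 276. The marker sum was 20 or more in 175 cells and between 5 and 7 in 29. Ly6a was lower nearer the threshold: cells with a sum of 20 or more had 2004 CPM, the 29 cells just inside had 420.3 CPM, and 59 cells just outside, with a sum of 3 or 4, had 229.2 CPM.

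Pi16 alone did not mark these cells. Of 2687 filtered barcodes with a Pi16 UMI, 479 reached the marker sum of 5, and the tendon, Ihh, Ptprc and Cdh5 limits were exceeded by 148, 18, 33 and 31 of those. When every cell was thinned to 3000 UMIs, Pi16 was seen in 58.06% of the fibroblasts, in 8.147% of leukocytes (at least 3 Ptprc UMIs and no Pdgfra) and in 1.599% of the other Pdgfra stromal cells; unthinned, it was in 16.44% of leukocytes and 6.513% of stromal cells. Clec3b, Tnxb and Dpt were seen in 66.67%, 44.09% and 65.23% of the thinned fibroblasts but in at most 0.4686% of the thinned leukocytes. Median depths before thinning were 16518 UMIs in the fibroblasts and 7744.5 in the leukocytes.

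Levels were then read from the UMIs of all members of a library summed and scaled to CPM. Each UMI counts 1 molecule read at its 3′ end, so the CPM of genes of different length can be set side by side. Pi16 (GRCm38 chr17:29317680-29330593) stood at 397.4, 658.8 and 319.5 CPM in control libraries 1, 2 and 3 and at 375.5, 1479 and 496.4 CPM in the knockout libraries. Clec3b (chr9:123150946-123157432) stood at 755.1, 1083 and 300.4 and at 286.9, 1735 and 825.5 CPM. Both genes were highest in knockout library 2, and the groups overlapped.

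Tnxb (chr17:34670535-34719815) stood at 587.2, 299.4 and 42.92 CPM in the controls and at 155.5, 519.2 and 207.7 CPM in the knockouts. Dpt (chr1:164796644-164824266) was the most even of the 4 genes, at 1009, 828.8 and 400.5 CPM and at 714.5, 829.4 and 523.3 CPM. Ly6a (chr15:74994877-74998031) stood at 1269, 2503 and 1173 CPM and at 1047, 3670 and 1145 CPM. Tnxb was lowest in control library 3, whose members had the lowest marker sums.

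What the members shared beyond the rule was described against the other Pdgfra stromal cells of the same library. Because a gate was set against the rest, these ratios are given without a test, as counts of libraries. Of 3385 genes with a mean of at least 50 CPM in the fibroblasts, 672 were higher in them in 6 of 6 libraries, 86 at least 2 times and 21 at least 4 times, on CPM with 5 added. The other direction held 231 genes in 6 of 6 libraries, but genes low in the fibroblasts could not enter this count, so the 2 counts are not to be set against each other. Dmp1 of osteocytes (mean 4.008 CPM against 100.1 in the other stromal cells) and Runx3 (7.492 against 62.79) were left out in this way. Leaving out 1 library at a time gave 720 to 936 genes higher and 256 to 328 lower in the remaining 5, with the most in both directions when control library 3 was left out. The count at 4 times or more was 21 to 25 without any one of the other libraries and 37 without control library 3.

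The 4 genes of largest ratio in their least favourable library were Cygb, Cd34, Itih5 and Ly6c1. Cd34, a sialomucin of progenitors and endothelium, stood at 490.2, 567.7 and 262.3 CPM in the controls and 205.7, 586.2 and 357.4 CPM in the knockouts, 9.179 to 37.15 times the level of the other stromal cells. Ly6c1, a neighbour of Ly6a in the Ly6 family (chr15:75044018-75048830), stood at 245.5 to 1117 CPM and was 8.616 to 53.62 times higher. Cygb, the globin of fibroblasts and stellate cells, stood at 237.9 to 678.5 CPM and was 10.15 to 19.18 times higher. All 3 genes were above the other stromal cells in each of the 6 libraries, and the control and knockout levels overlapped.

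Of the 20 genes of largest ratio, Col14a1, Itih5, Ltbp4, Hmcn2, Gpc3 and Cilp encode proteins of the matrix or cell surface. Col14a1, a fibril-associated collagen, ranged from 906.0 to 1564 CPM against 20.27 to 285.5 CPM in the other stromal cells. Itih5, a hyaluronan-binding inhibitor family member, ranged from 57.22 to 489.6 CPM, and Ltbp4, a latent TGF-beta binding protein needed for elastic fibres, from 347.7 to 702.8 CPM. Hmcn2 (hemicentin 2) and Gpc3 (glypican 3) were at least 5.165 and 5.006 times higher, and Cilp, a cartilage intermediate layer protein also made by fibroblasts, ranged from 479.0 to 1360 CPM. All of these were low in leukocytes, at a mean of 0.8731 to 10.6 CPM.

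Entpd2, Ace and Abca8a, which stood between Ly6c1 and Col14a1 in the order of ratios, encode enzymes and a transporter. Entpd2 and Ace, enzymes that split extracellular nucleotides and angiotensin, were at least 6.621 and 6.213 times higher, and the transporter Abca8a at least 8.204 times. Il33, a nuclear alarmin cytokine, was at 38.15 to 275.1 CPM and at least 4.972 times higher. Fzd4 (a Wnt receptor), C4b (complement), Dio2 (which activates thyroid hormone), Scn7a (a sodium channel), Mgst1 (a glutathione transferase) and the interferon-inducible Ifi203 and Ifi27l2a were higher by 4.067 times or more. Ifi27l2a and Mgst1 were also abundant in leukocytes, with means of 621.4 and 102.9 CPM. Saa3 and Cxcl5 inflammatory fibroblasts, which 3 libraries held in number, reached some of these levels in their highest library. There C4b was at 262.9, Il33 at 268.1, Scn7a at 220.8 and Col14a1 at 1141 CPM. Their medians over the 3 libraries were 9.731, 28.55, 34.62 and 91.8 CPM. Cygb was at most 26.29 CPM in them. The ratios thus do not show these genes to be particular to the Pi16 fibroblasts.

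**Figure D2:**
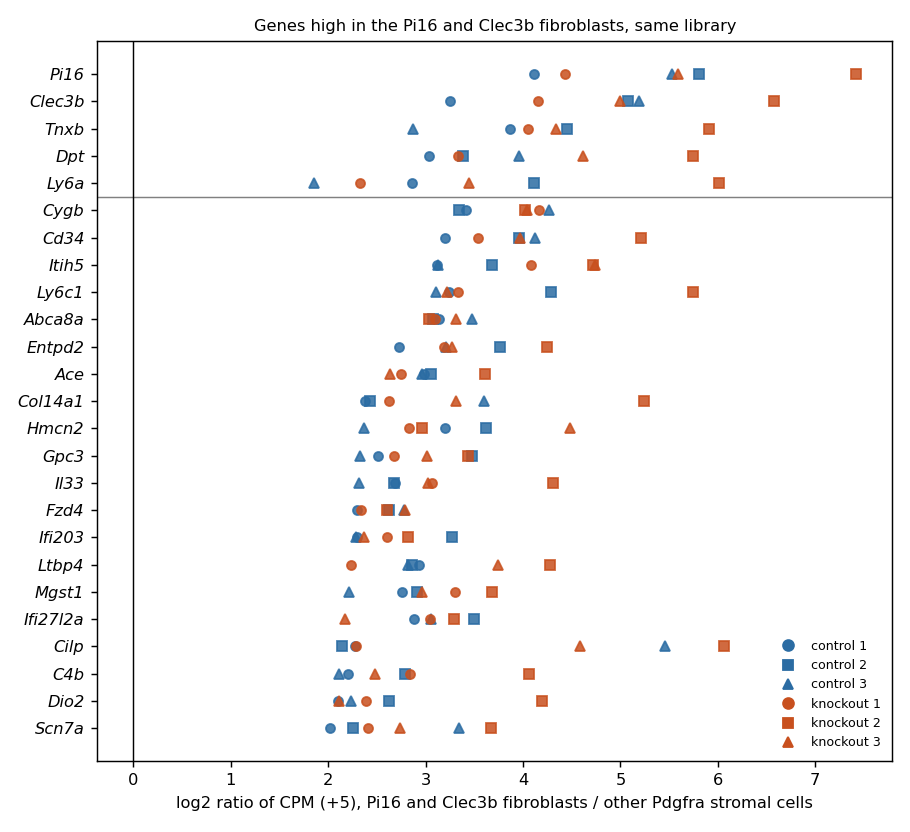
The x axis is the log2 ratio of CPM (5 added) between the Pi16 and Clec3b fibroblasts and the other Pdgfra stromal cells of the same library, for the 4 genes of the rule and Ly6a (above the line) and the 20 leading genes outside it (below); each symbol is 1 library (circle, square and triangle for replicates 1, 2 and 3; blue control, orange knockout). All points lie right of 0, and knockout 2 is often farthest, as for Ly6c1 at 53.62 times and Col14a1 at 37.86 times.

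The most abundant genes, other than mitochondrial and ribosomal protein genes, were Malat1, Col3a1, Col1a1, Sparc, Col1a2, Mgp, Dcn, Fn1, Fth1 and S100a6. The fibroblasts were richer in type III collagen than the other stromal cells and poorer in type I. Col3a1 was at 23120, 20190 and 21130 CPM in the controls and 22080, 17370 and 13410 CPM in the knockouts, and in 6 of 6 libraries it was higher than in the other stromal cells (1138 to 20220 CPM). Col1a1 was at 17660, 12610 and 15540 and at 19970, 10440 and 11250 CPM, in 6 of 6 libraries below the other stromal cells (22850 to 54210 CPM). Col4a1 and Col4a2 of basement membrane, Col14a1 and Col15a1 were also higher in 6 of 6 libraries, and Col1a2, Col5a2 and Col12a1 lower. Penk and Aspn periosteal-like cells had a median over libraries of 380.4 CPM of Col4a1 and 220.5 CPM of Col4a2, against 303.6 and 234.6 CPM in the fibroblasts. Those periosteal-like cells also had means of 1206 CPM of Rgs5 and 1049 CPM of Acta2, genes of pericytes and smooth muscle, against 79.98 and 341.8 CPM in the other Pdgfra stromal cells. Saa3 and Cxcl5 fibroblasts had a mean of 18440 CPM of Col3a1 (3 libraries) against 19550 in the fibroblasts.

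On a list of 30 genes of adventitial and universal fibroblast progenitors, 18 were higher in the fibroblasts in 6 of 6 libraries and 3 were lower. Beside them stand 672 higher genes of the 3385 with a mean of at least 50 CPM. Dpp4, the surface peptidase that gives this state one of its names, was at 49.36, 9.582 and 14.31 CPM in the controls and 6.817, 56.52 and 4.046 CPM in the knockouts, against a mean of 0.8531 CPM in the other stromal cells and 9.563 CPM in leukocytes. After thinning, Dpp4 was seen in 12.99%, 0.0% and 6.667% of the fibroblasts of control libraries 1, 2 and 3. The shares in knockout libraries 1, 2 and 3 were 0.0%, 13.56% and 0.0%. Pooled over libraries, it was seen in 6.81% of the thinned fibroblasts and in 4.037% of thinned leukocytes. In control library 2 and knockout libraries 1 and 3, where the fibroblasts were lowest, the other stromal cells of the same libraries had 0.5544, 0.3285 and 0.2444 CPM. Mfap5, a microfibril protein, was the most abundant of the list at 805.0 to 4293 CPM. Cd55, Sema3c, Cd248, Ackr3, Scara5 and Igfbp6 were among the genes that were higher throughout. Nt5e (CD73), Smpd3 and Pcolce2 were the lower ones, Nt5e at a mean of 124.6 CPM in the other stromal cells and 7.887 to 56.39 CPM in the fibroblasts.

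Skeletal genes went the other way. Of 14 genes of cartilage and bone differentiation, 10 were lower in the fibroblasts in 6 of 6 libraries, among them Runx2, Sp7, Alpl and Spp1, while Cilp was higher. Over all genes 231 of 3385 were lower, a count that genes low in the fibroblasts could not enter. Ibsp, a bone sialoprotein, had a mean of 980.1 CPM against 10240 CPM in the other stromal cells. All 10 chondrocyte markers and all 7 osteoblast markers were lower in 6 of 6 libraries, but none of them was at 0 in all libraries. The summed chondrocyte markers, led by Col2a1, were at 8048, 1035 and 1011 CPM in the controls and 2774, 248.4 and 3763 CPM in the knockouts. Leukocytes, which do not make cartilage collagen, had sums of 141.9 to 9360 CPM. A Col2a1 UMI was seen in 55.28% of thinned leukocytes and in 72.4% of thinned fibroblasts, and the part of free RNA in the cartilage counts of the fibroblasts was not tested.

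Markers of other cell types that the gate could hold differed in level. The 8 endothelial markers summed to at most 85.44 CPM, with Egfl7 the most abundant at a mean of 8.742 CPM, and the 7 lymphocyte markers to at most 44.51 CPM, with Cd79b and Ms4a1 at 0. The 10 macrophage markers, led by Lyz2, summed to 134.6, 134.1 and 138.3 CPM in the controls and 163.0, 676.9 and 237.4 CPM in the knockouts, higher in the knockouts without overlap, against 13700 to 16070 CPM in leukocytes. The 7 pericyte markers summed to 134.1 to 672.3 CPM, the 8 nerve-sheath markers to 38.12 to 90.6, the 7 muscle markers to at most 44.3, the 6 epithelial markers to at most 1.349 (4 of them at 0) and the 6 erythroid markers to at most 138.3. The 7 marrow stromal markers, led by Cxcl12, summed to 388.1 to 2573 CPM, with a median of 774.3 CPM against 780.1 CPM in the other stromal cells. The 7 hypertrophic markers, led by Ibsp, summed to 220.4 to 3345 CPM, with a median of 1170 CPM against 11290 in the other stromal cells and 1564 in leukocytes.

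Neutrophil RNA marked out 1 library. The 8 neutrophil markers, led by S100a8, summed to 5874 CPM in the fibroblasts of knockout library 2 and to 70.03 to 831.2 CPM in the other 5. In knockout library 2, 1 member held 61.8% of the S100a8 UMIs. At least 30 UMIs of neutrophil granule genes were present in 3 members, 2 of them in that library, and 11 of its 59 members were among the highest doublet scores, against 0 to 3 in each other library. The part of these cells in the results below was not tested beyond leaving them out, which left the count of called genes at 0.

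The 7 periosteal markers, led by Postn (periostin), summed to 4458 to 8850 CPM in the fibroblasts and to 838.8 to 5748 CPM in the other stromal cells. The 7 tendon markers, led by Thbs4, summed to 376.7 to 1361 CPM (median 968.9) against 241.5 to 2971 CPM (median 1807) in the other stromal cells. In 6 of 6 libraries 4 of them were lower in the fibroblasts, beside 231 of the 3385 genes at a mean of 50 CPM or more. Across 6613 genes, the summed profile of the fibroblasts had a median Spearman correlation within a library of 0.842 with Penk and Aspn periosteal-like cells, 0.838 with Tnmd and Kera tendon-like cells, 0.823 with all other Pdgfra stromal cells and 0.557 with leukocytes. The values against Saa3 and Cxcl5 inflammatory fibroblasts, which only 3 libraries held in number, had a median of 0.795. These correlations run across genes that share depth and library, and describe likeness only.

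Within each library the members were ranked by marker UMIs per total UMIs and split into equal sets, 137 cells each in all, with similar median depths of 15601 (higher set) and 17330 UMIs (lower set). The split used the 4 genes that chose the members, so the values are a description with no test. Of 1702 genes with a mean of at least 100 CPM, 117 were higher in the higher set in 6 of 6 libraries and 125 were lower. Cd34 had means of 604.6 and 234.4 CPM in the higher and lower sets, Cd55 (a complement regulator) 204.8 and 65.04, Igfbp6 2283 and 1083, Ly6a 2495 and 1180, and Dpp4 44.35 and 5.374.

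Among genes chosen after their values were seen, Acta2, the smooth muscle actin of myofibroblasts, had a mean of 184.3 CPM in the lower and 51.26 CPM in the higher set, and Tnn (tenascin-W) 241.7 and 56.24 CPM. Acan and Sox9, of cartilage, had 581.2 and 184.9 CPM and 223.7 and 94.52 CPM, and Spp1 (osteopontin) had 1278 and 280.7 CPM. Alpl, Hapln1, Thbs1 and Hmgb2 were also lower in the higher set in 6 of 6 libraries, and Col1a1 was at 13470 CPM there against 15560. Col2a1 was higher in the higher set in 1 library and Postn in 4. Whether the lower set held mixed droplets or more free RNA was not tested.

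Between the groups, Piezo1 was examined first. Piezo1 (chr8:122481698-122551329, the mechanosensitive channel) stood at 48.94, 28.75 and 28.61 CPM in control libraries 1, 2 and 3 and at 55.15, 40.75 and 25.63 CPM in the knockout libraries. The groups overlapped, and the log2 fold change was 0.17 (SE 0.36, edgeR adjusted p = 1.0). A 3′ count does not show whether exons further upstream were deleted, and the fibroblasts were not the cells the Cre was directed at. The other Pdgfra stromal cells had 37.05 to 57.61 CPM in the controls and 37.3 to 86.76 CPM in the knockouts.

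No gene passed the threshold between the groups in these fibroblasts. In edgeR's quasi-likelihood test on the UMIs summed per library, 0 of 8197 genes (0.0%) had a Benjamini-Hochberg adjusted p under 0.05. At an unadjusted p under 0.05 there were 189 genes (2.31%), 104 higher (1.27%) and 85 lower (1.04%) in the knockout. DESeq2 called 1 gene, Eln, of 21258 (0.0047%). Without a filter on low counts edgeR called 68 of 21273 genes (0.32%), of which 29 were too low to be tested with the filter. The sums came from 15 to 77 cells and 209716 to 2370391 UMIs per library.

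Eln, which encodes tropoelastin, the core of the elastic fibre, had the smallest p. It stood at 205.0, 117.4 and 138.3 CPM in control libraries 1, 2 and 3 and at 710.2, 711.1 and 635.3 CPM in the knockout libraries. The groups did not overlap, and the log2 fold change was 2.20 (SE 0.34, edgeR unadjusted p = 3.78e-05), but the edgeR adjusted p was 0.31. The adjusted p was 4.12e-07 in DESeq2 and 3.13e-05 in edgeR without the filter. Leaving out each library in turn gave log2 fold changes of 2.05 to 2.44. The log2 fold change was 1.47 with members thinned to 3000 UMIs and 3.27 when no UMI of the excluded lineage genes was allowed.

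A small number of members carried most of the Eln UMIs. In knockout libraries 1, 2 and 3 a single cell held 66.2%, 48.4% and 22.3% of them, and in control libraries 1, 2 and 3 a single cell held 30.9%, 28.6% and 55.2%. Without that cell, the controls stood at 143.3, 90.14 and 63.35 CPM and the knockouts at 246.2, 376.3 and 502.1 CPM, a description of cells picked by their Eln level. The groups stayed apart, but the distance between them shrank.

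The typical member did not separate the groups. An Eln UMI was present in 63.6%, 51.6% and 33.3% of the members of control libraries 1, 2 and 3 and in 71.1%, 39.0% and 72.9% of those of the knockout libraries. The median member had 37.7, 37.5 and 0.0 CPM in the controls and 43.1, 0.0 and 128 CPM in the knockouts. Both measures overlapped between the groups. Among members with a marker sum of 20 or more, the summed level was 256.3, 98.59 and 33.62 CPM in the controls, the last from 2 cells, and 929.2, 794.2 and 992.3 CPM in the knockouts. Among members with a smaller marker sum it was 49.36, 157.4 and 155.6 CPM in the controls and 37.84, 317.0 and 278.0 CPM in the knockouts, where the groups overlapped and knockout library 1 was lowest. Both sets were split on the genes of the rule and are a description.

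**Figure D3:**
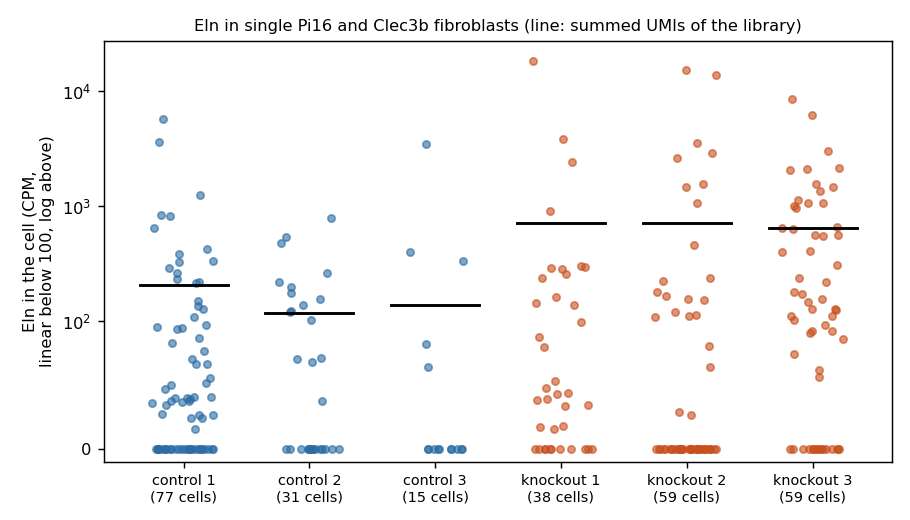
Eln level in CPM of the cell's own UMIs (y axis, linear below 100 and logarithmic above) in each Pi16 and Clec3b fibroblast (points, spread sideways for visibility) by library, with the summed level of the library as a line. The lines of the knockout libraries (635.3 to 711.1 CPM) lie above those of the controls (117.4 to 205.0 CPM), while most cells of both groups overlap and single cells reach far above the rest.

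Eln in the other Pdgfra stromal cells was at 47.51, 22.08 and 9.35 CPM in the controls and 17.34, 13.19 and 36.52 CPM in the knockouts, where the groups overlapped. The difference between the 2 contrasts was not tested. The fibroblasts themselves were 4.0 to 39.38 times higher than those cells. Of the 20 elastic fibre genes, all tested, 0 passed in either direction; 15 had a log2 fold change above 0 and 5 below, with a median of 0.11 against 0.00 (0.002) over all genes tested. The groups did not overlap for Eln and for Mfap4, a microfibril protein of elastic tissue at 307.5, 325.8 and 324.2 CPM in the controls and 412.1, 424.6 and 1033 CPM in the knockouts, and over all genes tested 7.12% did not overlap.

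The remaining genes of smallest p in the knockout's upward direction were Lcn2, Mfsd10, Lgi2 and Nubp2, each with an edgeR adjusted p of 1.0. Lcn2, the iron-siderophore binding lipocalin of acute inflammation, stood at 4.219, 40.72 and 9.537 CPM in the controls and 819.9, 157.7 and 28.32 CPM in the knockouts, and 85.9% and 81.7% of its UMIs in knockout libraries 1 and 2 lay in 1 cell each. Its log2 fold change of 4.41 turned to -0.55 when the marker sum was lowered to 3. When libraries were left out in turn, the Lcn2 value ranged from 2.75 to 6.04. Lgi2, a secreted leucine-rich repeat protein, stood at 20.25, 31.14 and 14.31 CPM and at 86.14, 28.92 and 62.05 CPM. Only Mfsd10 (49.95 to 56.65 CPM in the knockouts, 26.58 to 28.75 in the controls) and Nubp2 (22.93 to 32.86 against 4.768 to 13.92) kept the groups apart. The lowest Nubp2 values, 7.187 and 4.768 CPM, were those of control libraries 2 and 3. Members of these libraries summed to 417448 and 209716 UMIs, so the values of both genes there rest on few molecules.

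In the downward direction the smallest p belonged to Rgs5, Enpp2, Timp3, Zfp518a and Ifit3, again with an edgeR adjusted p of 1.0 each. Timp3, the matrix-bound inhibitor of metalloproteinases, stood at 494.4, 256.3 and 586.5 CPM in the controls and 170.4, 143.3 and 209.1 CPM in the knockouts (log2 fold change -1.30, SE 0.38). Enpp2, the enzyme autotaxin that makes lysophosphatidic acid, stood at 33.33, 40.72 and 42.92 CPM and at 15.49, 10.52 and 12.14 CPM. Its counts were low, at 79, 17 and 9 UMIs in the controls and 25, 8 and 9 UMIs in the knockouts. In control library 3, 1 member held 55.6% of them. Without the member with the most, the controls stood at 26.02, 34.71 and 19.93 CPM and the knockouts at 10.9, 6.628 and 9.555 CPM. The groups did not overlap for any of the 5 genes. In the other Pdgfra stromal cells Rgs5 (79.72 to 132.8 CPM in the controls, 22.68 to 70.74 in the knockouts), Enpp2 (82.45 to 89.53 against 20.07 to 77.49) and Ifit3 (11.73 to 18.25 against 3.76 to 10.46) were also lower in the knockouts without overlap. Timp3 and Zfp518a overlapped there, as did Mfsd10, Lgi2, Nubp2 and Lcn2, and no difference between the cell types was tested. A Timp3 UMI was present in 58.1% to 88.3% of the control and 52.5% to 78.0% of the knockout members, and the member with the most held 8.39% to 28.7% of a library's Timp3 UMIs.

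Rgs5, a G protein regulator of pericytes, stood at 100.4, 19.16 and 14.31 CPM in the controls and 9.295, 5.258 and 6.744 CPM in the knockouts. A single cell of control library 1 held 82.8% of its UMIs there, and without it that library was at 17.77 CPM. Ifit3, an interferon-induced protein, stood at 64.55, 62.28 and 47.68 CPM and at 6.817, 30.23 and 22.93 CPM, and 60.1% of its UMIs in control library 1 lay in 1 cell. Without that cell control library 1 was at 26.15 CPM, below knockout library 2, and the Ifit3 log2 fold change went from -1.59 to -0.53 when no UMI of the excluded lineage genes was allowed. The log2 fold change of Rgs5 ranged from -3.08 to -1.20 when libraries were left out in turn, the smallest without control library 1. With a marker sum of at least 3 it was -4.61. Values for Rgs5 came from 15 of the 21 alternatives, and in the others it was not tested.

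**Figure D4:**
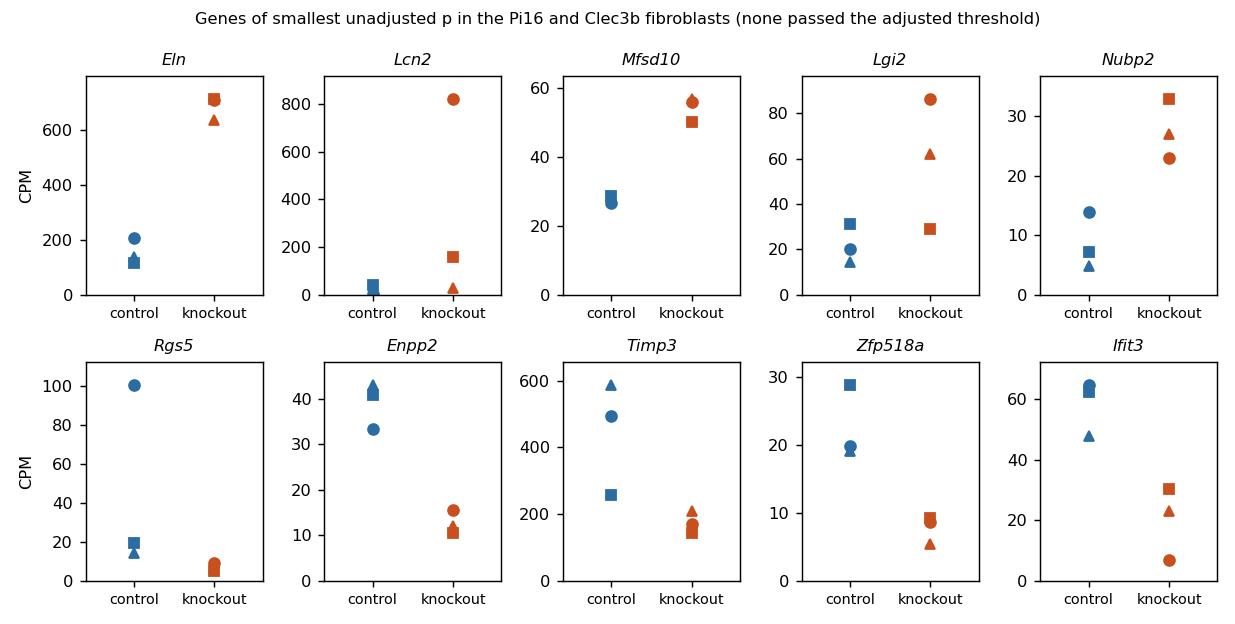
Summed CPM (y axes, each from 0) of the 5 genes of smallest unadjusted p in each direction, per library (circle, square and triangle for replicates 1, 2 and 3; blue control, orange knockout). Groups are apart for all but Lcn2 and Lgi2, and none passed the adjusted threshold, Eln being nearest with an adjusted p of 0.31.

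The gene groups were read against that background, in which 2.83% of genes tested were higher and 4.29% lower in the knockout without overlap. No member of any of the 20 lists passed the threshold in either direction, so the values that follow are descriptions. Of the progenitor list, 28 of 30 genes were tested, 16 with a log2 fold change above 0 and 12 below, and none kept the groups apart. Its most abundant members, Mfap5, Fbn1 and Ly6a, had log2 fold changes of 0.31, 0.11 and 0.31. The summed list was highest in knockout library 2, at 19880 CPM against 6305 to 12540 CPM in the other libraries.

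Of 12 myofibroblast genes, 11 had a log2 fold change below 0 and 1 above, with a median of -0.58. The summed pericyte markers, which share Acta2 with this list, had means of 398.5 CPM in the controls and 191.3 CPM in the knockouts, with overlap. They had means of 834.6 and 349.8 CPM in the other stromal cells and 229.2 and 64.38 CPM in leukocytes, and their part in the myofibroblast values was not tested. Tagln (transgelin) stood at 69.61, 91.03 and 329.0 CPM in the controls and 65.69, 27.6 and 63.39 CPM in the knockouts, without overlap. The most abundant, Postn, Cthrc1 and Ccn2, had log2 fold changes of -0.32, -0.62 and -0.45 and overlapped. Acta2 at 453.0 CPM and Tagln at 329.0 CPM were highest in control library 3, the library with 15 members.

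Of 16 collagen genes, 15 had a log2 fold change below 0 and 1 above, with a median of -0.23 and no gene without overlap. Col3a1, Col1a1 and Col1a2 had log2 fold changes of -0.24, -0.10 and 0.03, each smaller than its SE. The 10 small proteoglycans, led by Dcn, Bgn and Aspn, divided 3 above and 7 below, and Ogn (osteoglycin) was lower without overlap. Among 20 proteases and inhibitors, 16 lay above 0 and 4 below. Their most abundant members Cst3, Mmp2 and Serping1 had log2 fold changes of 0.03, 0.10 and 0.42, and Timp2 and Timp3 were lower without overlap.

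Of 18 chemokine and cytokine genes 13 were tested, 11 with a log2 fold change above 0 and 2 below. Ccl2, which recruits monocytes, stood at 8.016, 222.8 and 14.31 CPM in the controls and 226.8, 477.1 and 358.8 CPM in the knockouts, without overlap but with control library 2 close to knockout library 1. A single cell held 73.1% of the Ccl2 UMIs in control library 2, 48.5% in knockout library 2 and 41.7% in knockout library 3. The most abundant, Cxcl14, Cxcl12 and Ccl7, had log2 fold changes of 1.54, 0.92 and 0.59 and overlapped. Cxcl14 was at 1632 CPM in knockout library 1 and at 61.99 to 428.8 CPM in the other 5. The leukocyte markers also had higher means in the knockouts: the macrophage markers had means of 135.7 CPM in the controls and 359.1 CPM in the knockouts, and the neutrophil markers, which overlapped, 386.3 and 2292 CPM. Their part in the chemokine and acute phase values was not tested.

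The summed acute phase genes were highest in knockout library 1, at 4521 CPM against 494.9 to 995.4 CPM in the other libraries. All 6 of the 10 that could be tested had a log2 fold change above 0, with a median of 1.25. Lbp, the lipopolysaccharide binding protein, stood at 292.4, 373.7 and 243.2 CPM in the controls and 673.0, 424.6 and 593.5 CPM in the knockouts, without overlap and in most members of every library (73.3% to 89.8%). Hp (haptoglobin) had a log2 fold change of 1.55 and overlapped. Saa3, a serum amyloid A protein, stood at 33.75, 14.37 and 119.2 CPM and at 1459, 3.943 and 1.349 CPM, so it was high in knockout library 1 only and lowest in the other knockout libraries.

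Of 11 complement genes 10 were tested, with 5 above and 5 below 0 and none without overlap. Serping1, C3 and C1s1 led with log2 fold changes of 0.42, 0.81 and -0.04. C3, the central component, ranged from 100.1 to 864.8 CPM in the controls and from 241.4 to 1332 CPM in the knockouts. In 6 of the 11 genes the fibroblasts were above the other stromal cells in 6 of 6 libraries, beside 672 of the 3385 genes at a mean of 50 CPM or more.

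Of 10 IGF genes 8 were tested, 4 above and 4 below 0; Igfbp4, Igfbp5 and Igfbp7 had log2 fold changes of 0.41, -0.94 and -0.18, and Igf2r was lower without overlap. Igf1 itself was at 1350, 2393 and 1020 CPM in the controls and 2014, 851.8 and 977.9 CPM in the knockouts, above the other stromal cells in 6 of 6 libraries. Of 20 TGF-beta and BMP genes 17 were tested, 4 above and 13 below 0. Tgfb3 and Bmp5 were lower without overlap, and Id3, Tgfbr2 and Tgfbr3 had log2 fold changes of -0.29, -0.12 and 0.38.

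Wnt genes were represented mainly by secreted inhibitors. Of 15 genes 8 were tested, 3 above and 5 below 0, and Sfrp1, Sfrp2 and Sfrp4 were the most abundant, with log2 fold changes of 0.94, 1.13 and -0.05. Sfrp2 stood at 168.7, 258.7 and 190.7 CPM in the controls and 787.6, 269.5 and 268.4 CPM in the knockouts, without overlap but by a small margin outside knockout library 1. The Wnt targets Axin2 and Lef1 were at or below 6.817 and 1.314 CPM. Of 14 mechanosensing and YAP/TAZ genes 11 were tested, 5 above and 6 below 0. Ccn2, Ccn1 and Wwtr1 had log2 fold changes of -0.45, -0.40 and -0.06, and Piezo2, a second mechanosensitive channel, was at 105.0, 103.0 and 128.7 CPM in the controls and 49.58, 88.07 and 51.25 CPM in the knockouts, lower without overlap.

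Of 14 skeletal genes 11 were tested, with 4 above and 7 below 0 and none without overlap. Col2a1, Ibsp and Spp1, the most abundant, had log2 fold changes of -0.51, 0.96 and 1.69 and were also counted in leukocytes, at means of 2507, 998.4 and 2206 CPM. Of 12 adipogenic genes 8 were tested, 6 above and 2 below 0; Cebpd and Dlk1 overlapped, with log2 fold changes of -0.07 and 1.17. Apoe, the lipid-carrying apolipoprotein (chr7:19696109-19699188), stood at 156.5, 158.1 and 95.37 CPM in the controls and 215.7, 337.8 and 268.4 CPM in the knockouts, without overlap (log2 fold change 1.05, SE 0.34, edgeR adjusted p = 1.0). Leukocytes had a mean of 4772 CPM of Apoe, and the part of their RNA in this difference was not tested.

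Among 18 transcription factors of fibroblasts, 13 were tested, 2 above and 11 below 0. Klf4, Ebf1 and Prrx1, the most abundant, had log2 fold changes of -0.60, -0.02 and -0.24. Prrx1 and Tcf4 were lower and Osr1 higher without overlap, Osr1 at 75.09, 67.07 and 33.38 CPM in the controls and 101.6, 120.9 and 86.32 CPM in the knockouts. In 9 of the 18, among them Ebf1, Ebf2, Meox2 and Osr1, the fibroblasts exceeded the other stromal cells in 6 of 6 libraries. The same held for 672 of the 3385 genes at a mean of 50 CPM or more.

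**Figure D5:**
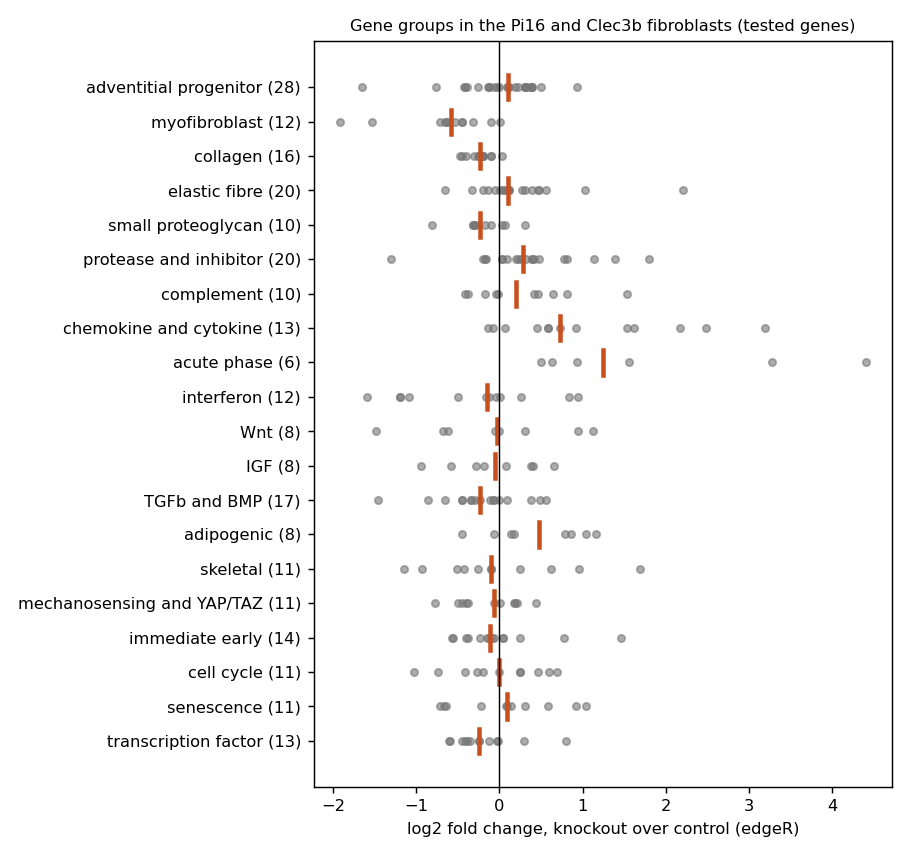
The x axis is the edgeR log2 fold change of knockout over control in the Pi16 and Clec3b fibroblasts; each grey point is a tested gene of the list named on the left (number tested in brackets) and orange bars are list medians. The myofibroblast median lies at -0.58 and the acute phase median at 1.25, and no gene shown passed the adjusted threshold.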

How the data were processed

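Dissociated callus cells were run on 10x Genomics 3′ (v3) chemistry. Per the labels and the files, the authors aligned reads to GRCm38 and deposited raw UMI counts per gene and barcode with no normalization; the file headers name Cell Ranger 6.1.1 for both replicate 1 libraries and 6.1.2 for the rest. Replicate 3 of both groups has another gene list (55357 against 55450 genes), so the 52081 shared identifiers were used, which hold at least 97.7669% of each library's UMIs. Positions are from GENCODE M21.

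Members and lists were chosen with earlier results of these data known. UMIs were summed per library over members and tested with edgeR 4.0.16 (quasi-likelihood, TMM, filterByExpr, Benjamini-Hochberg) in R 4.3.3; shares were tested by exact permutation in scipy 1.17.1. The named genes were those of the rule with Ly6a, Piezo1, the 10 most abundant, the 20 of largest ratio in the least favourable library, for each of the 20 functional lists the members past the threshold and the 3 most abundant, and, as fewer than 3 genes passed, the 5 of smallest p in each direction. Other list members were named after their values were seen, and some list members are not reported here. There were also 15 marker lists of other cell types. Doublets were scored with Scrublet (scanpy 1.11.5) and kept, since its own threshold called 0 to 424 barcodes per library; the tests were repeated without the highest scores. The test was tried on simulated counts.

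Same-numbered libraries deviated together: the correlations of their deviations from the group means were 0.252, 0.122 and 0.111 for numbers 1, 2 and 3 across 6613 genes. The pairing rests on this and on the shared Cell Ranger version and gene list, not on a label. Alternatives were other cell limits, DESeq2 1.42.0, no filter, each library left out, and a replicate block.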

Additional observations from a re-analysis of the deposited data

How the results depend on the processing

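The count of genes past the threshold stayed at 0 under the cell limits, doublet, thinning and scaling alternatives tried, and without each library in turn (range 0 to 0). It was 1 with DESeq2 and 68 (57 higher, 11 lower) with no filter on low counts; the filter removed 29 of those 68 from testing. With the replicate block it was 0 as well, with Eln at an edgeR adjusted p of 0.9. For the shares the block gives the same differences by construction, -0.0758 and -0.171 points (exact permutation p = 1.0). Its smallest possible p is 0.25, so it could not change the call on the shares. The share difference ranged from -0.683 to 1.01 points of filtered barcodes and from -2.15 to 2.08 points of stromal cells when single libraries were left out, and the latter was -2.31 points without replicate 3 of both groups. It turned to 0.205 and 0.373 points when no UMI of the excluded lineage genes was allowed, and the stromal one to 0.0587 with a marker sum of at least 8. The log2 fold change of Piezo1 turned to -0.056 with no lineage UMI and ranged from -0.11 to 0.527 without single libraries, and that of Lcn2 turned to -0.548 with a marker sum of at least 3. The causes were not tested. With no filter Lcn2, Rgs5 and Ifit3 also passed, at edgeR adjusted p of 2.79e-18, 1.4e-06 and 0.0419. Piezo1 was too low to be tested after thinning to 3000 UMIs. The alternative without members of at least 30 granule UMIs was chosen after seeing the data. Eln ranged from 1.467 with members thinned to 3000 UMIs to 3.266 with no lineage UMI. The sums rest on 15 to 77 cells per library, and 1 cell held over 80% of the UMIs of Lcn2 or Rgs5 in 3 libraries.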

Other observations

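Of 14 interferon-induced genes, 10 were higher in the fibroblasts than in the other stromal cells in 6 of 6 libraries, 3 of them at least 2 times, beside 672 of the 3385 genes at a mean of 50 CPM or more. Ifi27l2a had a mean of 421.5 CPM in the fibroblasts and 621.4 CPM in leukocytes. Among the 10 were Isg15 at 92.39, 230.0 and 267.0 CPM in the controls and 37.18, 471.9 and 32.37 CPM in the knockouts, and Bst2 at 137.0 to 520.5 CPM. Between the groups 12 were tested, 4 above and 8 below 0, with Ifit3 lower without overlap and none past the threshold. The most abundant, Ifi27l2a, Bst2 and Isg15, had log2 fold changes of -0.13, 0.01 and -0.04. The summed list was at 1014, 1442 and 1841 CPM in the controls and 671.1, 2331 and 586.7 CPM in the knockouts, so knockout library 2 was highest of all and the other knockout libraries lowest.

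Immediate early genes, which tissue digestion is known to induce, varied by library. The 14 genes summed to 5851, 8451 and 6790 CPM in the controls and 5708, 2600 and 11450 CPM in the knockouts, with 5 log2 fold changes above and 9 below 0 and none without overlap. Jun, Fos and Jund had log2 fold changes of 0.04, -0.13 and -0.06. Hspa1a, an inducible heat shock protein, was at 1575 CPM in knockout library 3 and at 34.18 CPM in knockout library 2, with 188.2 to 356.9 CPM in the other 4.

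The 14 cell cycle genes summed to 272.1, 440.8 and 882.1 CPM in the controls and 715.8, 337.8 and 245.5 CPM in the knockouts, and none was higher or lower than in the other stromal cells in 6 of 6 libraries. Between the groups 11 were tested, 5 above and 6 below 0, and Mcm6 was higher without overlap; Pcna, Top2a and Ube2c had log2 fold changes of 0.25, -0.20 and -1.02. Mki67 stood at 32.48, 26.35 and 90.6 CPM in the controls and 127.0, 15.77 and 2.698 CPM in the knockouts. Of 12 senescence genes 11 were tested, 7 above and 4 below 0, with Apoe higher without overlap and Bax at a log2 fold change of 0.10. Cdkn1a, the p53 target p21, was lower in the fibroblasts than in the other stromal cells in 6 of 6 libraries and stood at 108.0, 52.7 and 81.06 CPM in the controls and 95.43, 53.89 and 296.7 CPM in the knockouts.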
